A study of Mus musculus with 2 samples.

Results

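The guides described here are the members of a genome-wide mouse CRISPR library whose positions 19 and 20, the last 2 bases before the protospacer adjacent motif (PAM), are both T. They were found by sequence alone, and 438 of the 79633 guides of the library, or 0.550%, ended in this way. Of these, 421 had at least 30 reads in the input library and entered survivor over input ratios, and 17 had fewer. The rule that picks the guides reads the sequence and no read count.

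A guide RNA directs the Cas9 nuclease to a matching stretch of DNA that is followed by the PAM, and the bases next to the PAM form the seed, where pairing with the DNA starts. Rules for choosing active guides have long marked T bases next to the PAM as unfavourable. Guide RNAs are also made by RNA polymerase III from the U6 promoter in vectors of this kind, and that polymerase stops at a run of T bases. A run at the end of the guide lies directly before the scaffold of the guide RNA, which itself begins with a T-rich stretch.

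The screen was done in bone marrow derived macrophages from mice with Cas9 knocked in at R26, immortalised with the J2 retrovirus. The cells also carried the Tet3G transactivator and a doxycycline-inducible, tagBFP-tagged fragment of gasdermin D (GSDMD) whose N-terminal part forms the membrane pore of pyroptosis, and they had been transduced with the Brie lentiviral library. All of this was shared by both groups: uninduced cells without doxycycline (input), and cells sorted as BFP+ PI- after doxycycline at 0.5 μg/ml had induced the fragment for 16 h (survivors); PI, propidium iodide, stains cells with open membranes. Each group was 1 library, with 86266754 input reads and 16269091 survivor reads, so the differences below lack replicates and are given without p-values. Intervals are exact 95% Clopper-Pearson intervals for shares and exact binomial order-statistic intervals for medians. They take each guide as an independent observation and say nothing about the spread between libraries.

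The 7 T-run guides are shown first, because each ends in at least 4 T bases. This set was singled out after its values were seen. Capitals mark the final run of T bases, and each sequence is written 5′ to 3′.
T-run guide a: aacgggcgcaatacccTTTT
T-run guide b: agccgcgccgcaaagcTTTT
T-run guide c: cccgtaggggtcgtggTTTT
T-run guide d: ggcgggttaggccccgTTTT
T-run guide e: gtgtggtatatccccgTTTT
T-run guide f: tatgccatatgcccgTTTTT
T-run guide g: tgaggttaccgccggcTTTT

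A TT ending was the rarest of the 16 possible endings. From the frequencies of T at position 19 (18.5% of guides) and at position 20 (12.9%), 1909 guides would be counted if the positions were independent, and the observed number was 0.229 times that. The endings TA, with 925 guides and 0.280 times its independent number, and TC, with 787 guides and 0.558 times, were the next most depleted in this measure. A T at position 19 was not rare before G: 12615 guides ended in TG, 1.55 times the independent number. Pairs of T bases were more frequent at each of the other 18 places in the guide. Their number there ran from 864 guides at positions 17 and 18, 0.430 times the independent number, to 5634 guides at positions 14 and 15.

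The bases before the final TT were uneven as well. Position 17 was A in 258 of the 438 members, or 58.9% (54.1 to 63.6%), against 37.1% of comparison guides. Here and below, comparison guides end in neither TT nor GG and are weighted to the members' first base and G plus C count in positions 1-18. Position 18 was C in 259 members, or 59.1% (54.4 to 63.8%), against 37.9% of comparison guides. Both held together in 205 members, which therefore ended in ACTT, or 46.8% (42.1 to 51.6%), against 17.4% of comparison guides with AC at positions 17 and 18. The same AC stood before 47.3% of the guides ending in TC and 42.1% of those ending in AC, and before 13.7% of those ending in TG, so its high share was not limited to the TT ending. A further T at position 18 was seen in 40 members, or 9.13% (6.60 to 12.2%), against 14.8% of comparison guides. After ACTT the most frequent last 4 bases were AGTT, with 25 members.

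In the uninduced input the members were about as abundant as the comparison guides. The lowest member had 0 reads and the highest 3783, and the median was 892 reads (829 to 999), against 935 for comparison guides and 939 for the whole library. On the log2 scale of reads plus 1 the median difference was -0.07 (-0.17 to 0.10). Here and below, the interval of a difference from comparison guides is the members' interval minus the comparison value. That value was taken as fixed, so its own error is left out. The 25th and 75th percentiles of the members, 529.5 and 1418.75 reads, stood beside 504 and 1491 in comparison guides.

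Guides with few input reads were not detectably more frequent among the members. Fewer than 200 input reads were counted for 50 of 438 members, or 11.4% (8.59 to 14.8%), where 9.89% of all guides and 10.1% of comparison guides fell below this number. The difference was 1.36 percentage points (-1.46 to 4.72). Fewer than 30 reads were counted for 17 members, or 3.88% (2.28 to 6.14%), against 3.77% in the comparison. With 400 reads as the limit the members lay lower, at 18.3% (14.8 to 22.2%) against 19.3%. Whether the difference was above or below 0 thus depended on the read limit, and at each of the limits from 1 to 1000 reads its interval held 0. It also depended on how the ending itself was counted: with G plus C matched over all 20 positions the difference below 200 reads was -0.35 points (-3.17 to 3.01).

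In the input 6 members had no reads, which allows an abundance of up to 0.0348 RPM (reads after scaling each library to 1000000), and these 6 had no survivor reads. They are shown because 3 of them begin with TCTC or AGACG, in capitals beside the final TT. These starts belong to a set of motifs, and most library guides with a motif of this set are missing from the input.
Absent guide a: AGACGccagaggaactacTT
Absent guide b: TCTCtgtcatagtagaacTT
Absent guide c: TCTCttataggacacagcTT
Absent guide d: cagtacaagaaagcccacTT
Absent guide e: gatgaaacggagttctacTT
Absent guide f: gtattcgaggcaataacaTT
The library has 730 guides with such a motif, 618 of them at 0 input reads. Among the members 4 had such a motif, so this loss touched few of them. Below 30 input reads, 15 of the 17 members had no survivor reads either. The whole library had 2866 guides below 30 input reads, and of its 10573 guides without survivor reads 7876 had at least 30. The guide ccaaccatgactgtaacgTT had 8 input reads and 83 survivor reads, and the guide atagtaaagaggccagcaTT had 7 and 10. The ratio without a pseudocount, centred on the library's median log2 ratio, came to 6.20 (log2, exact interval 5.15 to 7.46) for the first and 3.34 (1.80 to 4.97) for the other, covering counting error only. Both values rest on very few input reads.

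After induction and sorting the survivor over input ratio of the members was not detectably different from that of the comparison guides. The ratio was taken as log2 of survivor RPM + 1 over input RPM + 1 and centred on the median of the 76767 guides that reached 30 input reads. The median of the 421 members was -0.04 (-0.19 to 0.08), against 0.01 for comparison guides and 0 for all guides. The difference was -0.04 (-0.20 to 0.07), and with G plus C matched over all 20 positions it was 0.04 (-0.11 to 0.15). In the members 205 ratios lay above the library median and 216 below it. Their SD was 1.26, and that of all guides was 1.25. Median survivor reads were 122 (99 to 143) in the members and 136 in the comparison.

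Complete loss from the survivors was not detectably more frequent either. Among the members 48 of 421 had no survivor reads, or 11.4% (8.53 to 14.8%), where 10.3% of all kept guides and 10.3% of comparison guides had none. The difference was 1.07 percentage points (-1.80 to 4.50), and with G plus C matched over all 20 positions it was -0.99 (-3.86 to 2.44). Loss went with few input reads in the members as in the library. In the 20% of kept guides with the fewest input reads, 30 to 470, 34 of 76 members were absent, or 44.7% (33.3 to 56.6%), against 37.5% of comparison guides. In the 20% with the most, from 1680 reads, 0 of 77 were, which allows up to 4.68% (exact interval), against 0.147%. With at least 1000 input reads 4 of 198 members were absent, or 2.02% (0.553 to 5.09%), against 0.930%.

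The upper and the lower tail of the ratio were counted separately. A rise of at least 4-fold was seen in 14 of 421 members, or 3.33% (1.83 to 5.52%), beside 3.04% of all kept guides and 3.12% of comparison guides. A fall of at least 4-fold was seen in 46 members, or 10.9% (8.11 to 14.3%), beside 8.17% of all kept guides and 8.21% of comparison guides. The excess was 2.72 percentage points, with an interval from -0.10 to 6.10 that holds 0. Standardised in the same way, the other 15 endings lay between 7.51 and 9.37%, below the members, whose number was the smallest of all endings. Of the 46, 18 had no survivor reads, out of 48 kept members without them. With the pseudocount of 1 RPM, a guide with few input reads cannot show a 4-fold fall even without survivor reads. These shares are thus not the share of lost guides. The excess was 0.91 points with a pseudocount of 0.1 RPM, where 82 members passed (19.5%, beside 18.5% of all kept guides), and 0.04 points with 5 RPM, where 1 passed (0.238%, beside 0.203%). Among members with at least 1000 input reads, 20 of 198 were at least 4-fold lower, or 10.1% (6.28 to 15.2%), against 6.20% of comparison guides. At least 4-fold higher were 3 of the 198, or 1.52% (0.314 to 4.36%), against 1.77% of comparison guides and 1.82% of all guides from 1000 input reads. With the ratio centred on guides of that read number, the excess was 3.44 points (-0.58 to 8.66).

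The members at the ends of this range show what such values rest on. Among members with at least 1000 input reads the 3 highest and the 3 lowest ratios belonged to the following guides, with the final TT in capitals.
High guide a: actcggaacctcacagacTT
High guide b: tttgcctggacaagtgggTT
High guide c: tgataaagcagcaggaagTT
Low guide a: ctgctgcaaagcggatacTT
Low guide b: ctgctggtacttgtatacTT
Low guide c: cttcacctactacaccacTT
High guide a had 1484 input reads and 903 survivor reads, and its log2 ratio was 2.05. High guide b had 1214 and 741, with a log2 ratio of 2.05, and high guide c had 3551 and 2100, with 2.04. Their reads in the deeply sequenced libraries leave narrow counting intervals, from 1.99 to 2.15 on the log2 scale without a pseudocount for high guide c. The low guides had 1393, 1270 and 1270 input reads and no survivor reads. Against a floor of 3 survivor reads, which is 0.184 RPM, low guide a was at least 65.5-fold lower than the library median ratio, and low guides b and c at least 59.7-fold. All 3 low guides start with C, and their genes were not analysed here.

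By first base, members starting with G had the lowest median ratio and those starting with T the highest, as in the comparison guides. Members starting with G had a median log2 ratio of -0.48 (-0.78 to 0.04, n = 109), against -0.29 for comparison guides starting with G. Members starting with T had 0.27 (0.03 to 0.56, n = 111), against 0.23 in the comparison. Those starting with A had -0.11 (-0.31 to 0.19, n = 110), against -0.01. Those starting with C had -0.07 (-0.60 to 0.21, n = 91), against 0.20, the largest of the 4 gaps. The order of the comparison guides, with G lowest and C and T highest, was kept in part, since members starting with C stood close to those starting with A.

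Input reads by first base had a gap for C as well. Members starting with C had a median of 855.5 input reads (712 to 982), below the 1003 of comparison guides starting with C, and 14 of 94 had fewer than 200, or 14.9% (8.39 to 23.7%), against 8.84%. Members starting with G went the other way, with 8 of 111 below 200 reads, or 7.21% (3.16 to 13.7%), against 10.6%. They were also absent from the survivors in 6 of 109 cases, or 5.50% (2.05 to 11.6%), against 10.8%. For A and T the shares below 200 reads were 13.0% (7.49 to 20.6%) against 10.1% and 11.0% (5.998 to 18.1%) against 10.4%. The 4 intervals of the share hold the comparison value, whereas that of the median input reads for C does not. These are 4 classes looked at after the whole set, and the differences between them were not tested.

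By G plus C count in positions 1-18, which ran from 3 to 15 among the members with a median of 9, few input reads were most frequent where the count was low. With a count of up to 7, 16 of 103 members had fewer than 200 reads, or 15.5% (9.15 to 24.0%), against 13.7% of comparison guides. With 8 or 9 it was 22 of 194, or 11.3% (7.24 to 16.7%), against 9.73%. With 10 or more it was 12 of 141, or 8.51% (4.48 to 14.4%), against 7.81%. The members followed the fall of the comparison guides with rising G plus C. Median input reads were 772, 772 and 1207 in the 3 classes, against 731, 941 and 1098, and in the class with 8 or 9 the interval of the median (708 to 885) lay below the comparison value. The median log2 ratios were -0.16, -0.01 and 0.03, against -0.12, 0.02 and 0.09.

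Members with longer final T runs did not have lower median input reads. Exactly 2 T bases ended 398 members, with a median of 876.5 input reads (793 to 955) against 940 in comparison guides, and exactly 3 ended 33 members, with 1340 (772 to 1945) against 847. At least 4 ended the T-run guides shown at the start, 6 with 4 T bases and 1 with 5, and all 7 were present in both libraries. Absence from the survivors in 0 of 7 allows up to 41.0% (exact interval), and 8.76% of comparison guides were absent. The input reads of the T-run guides, in the order a to g, were 999, 1391, 2064, 1421, 751, 3402 and 1207. Their survivor reads in the same order were 529, 602, 95, 306, 150, 1306 and 477. The lowest of the 7, with 751 reads, lay below the median of all members, and 2 members of the whole set had more input reads than T-run guide f.

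The log2 ratios of the T-run guides were 1.83 for a, 1.57 for b, -1.45 for c, 0.60 for d, 0.49 for e, 1.43 for f and 1.43 for g. Of the 7, 6 lay above the library median and c lay below it. The median was 1.43 (-1.45 to 1.83), against 0.05 in comparison guides, and the interval spans all 7 values. Runs of 4 T bases were rare in the library: 24 guides held TTTT at any place, and 7 of these 24 ended in it. All 24 guides also held at least 1 CpG, and so did all 7 T-run guides. Of the other 431 members 191 did, or 44.3%, and of the whole library 47884 guides did, or 60.1%. Non-targeting control guides were not identified here.

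Some members had a near twin in the library with another ending. Pairs with the same positions 1-18 that differed in the last 2 bases were listed, at most 6 by larger sum of input reads. These pairs are shown with the last 2 bases in capitals, the TT member first.
Twin pair a, member: ggcgctcttgcgggcggcTT
Twin pair a, other: ggcgctcttgcgggcggcCT
Twin pair b, member: atagtaaagaggccagcaTT
Twin pair b, other: atagtaaagaggccagcaTA
Twin pair c, member: ttgtaggcgagagtccagTT
Twin pair c, other: ttgtaggcgagagtccagCT
Twin pair d, member: ttgactctaaacaaatacTT
Twin pair d, other: ttgactctaaacaaatacTC
Twin pair e, member: gatgtgctactataccagTT
Twin pair e, other: gatgtgctactataccagCT
Twin pair f, member: aacagtaaggggcagataTT
Twin pair f, other: aacagtaaggggcagataCT
In pair a the member had 869 input and 500 survivor reads and the other guide 2303 and 245. In pair b the member had 7 and 10 against 2314 and 188, and in pair c 318 and 86 against 1702 and 508. The member had fewer input reads in these 3 pairs. In pairs d, e and f it had more: 1249 input and 262 survivor reads against 677 and 119 in d, 810 and 0 against 149 and 6 in e, and 750 and 294 against 16 and 0 in f. The listed twins thus gave no common direction in input reads.

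Guides that overlap in sequence gave a further comparison. Whether they target the same place was not checked, as only promoter windows of the genome were used here, and some are repeat-like. A member and a guide with another ending shared at least 14 bases end to end in 30 pairs, with 25 members, 18 of the pairs in the same and 12 in opposite orientation. The member had fewer input reads in 16 pairs and more in 14. The median difference in log2(input reads + 1) was -0.29 (-1.11 to 0.61). Few input reads were largely shared: both guides had fewer than 200 in 7 pairs, the member alone in 1 and the partner alone in 4. Both guides reached 30 input reads in 26 pairs, where the member had the lower log2 ratio in 16 and the higher in 10, with a median difference of -0.60 (-1.38 to 0.29). Members recur in several pairs, so these intervals are too narrow.

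The 6 pairs with the longest shared stretch, 19 bases, and the most input reads show this spread. In 5 of them the partner begins 1 base upstream on the same strand, so that its own last base is the first T of the final TT, and in pair e the partner lies on the opposite strand. Capitals mark the last 2 bases of each guide.
Overlap pair a, member: ttctcattctcatcgatgTT
Overlap pair a, partner: tttctcattctcatcgatGT
Overlap pair b, member: cccacagtgtgagttcacTT
Overlap pair b, partner: acccacagtgtgagttcaCT
Overlap pair c, member: aacagtaaggggcagataTT
Overlap pair c, partner: caacagtaaggggcagatAT
Overlap pair d, member: gcaccacagaaaccttcgTT
Overlap pair d, partner: ggcaccacagaaaccttcGT
Overlap pair e, member: ggtctgtctctgactgcaTT
Overlap pair e, partner: atgcagtcagagacagacCC
Overlap pair f, member: gtggttcatacgactcagTT
Overlap pair f, partner: ggtggttcatacgactcaGT
The log2 ratios of member and partner were 0.05 and 1.16 in pair a, -0.30 and -0.50 in b, 1.39 and -0.07 in c, 1.76 and 1.46 in d, 0.26 and -1.66 in e, and 0.26 and -0.55 in f. Input reads were 2120 and 1760 in a, 806 and 1622 in b, 750 and 1620 in c, 1165 and 1057 in d, 1204 and 567 in e, and 671 and 954 in f. In pairs a and d both guides lay above the library median and in pair b both lay below it, whereas in pairs c, e and f the guides lay on opposite sides of it.

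Few members could be placed in the genome. In the 32851 RefSeq promoter windows of build GRCm38.p6 (250 bases before to 50 after a start site), 8 members matched exactly with an NGG PAM behind them, 8 matches in all. Matches outside these windows were not sought. The other 5 matches lay in the windows of Gm46693, Gm7152, LOC115488789 and, with 2 matches, Mup-ps12. The 3 shown here, with the TT and the PAM in capitals, were picked after their values were seen, because they lie in named genes whose products have a described role.
Cox19 match: atgtcgaccgcaatgaacTTCGG
Crip2 match: tgtgacaagaccgtatacTTCGG
Med9os match: cggtggctgtagcgtatcTTCGG
The first lies at chr5:139345134-139345153 on the minus strand, from base 14 of the transcribed part of Cox19, which encodes a factor for the assembly of cytochrome c oxidase. That guide had 1496 input reads and 334 survivor reads, and its log2 ratio was 0.65. The Crip2 match, at chr12:113140593-113140612 on the plus strand, spans a start site of Crip2, the gene of a LIM domain protein, and had 1178 input and 170 survivor reads with a log2 ratio of 0.06. The match in the window of the non-coding gene Med9os, at chr11:59948304-59948323 on the minus strand, lies within the span of Med9, the gene of a Mediator subunit, and had 982 input and 17 survivor reads with a log2 ratio of -2.18. These are letter matches in the windows searched, and the gene each guide was designed for was not analysed here.

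Among all endings the TT guides stood inside the range of the others in most measures. With every ending standardised to the members' first base and G plus C count, the share with fewer than 200 input reads ran from 8.48% (AT) to 13.1% (GC), and TT at 11.4% had 3 endings above it and 12 below. Median input reads ran from 782 (AA) to 1028 (CA), with 892 for TT. The share absent from the survivors ran from 8.17% (CT) to 12.5% (AA), with 11.4% for TT, and the median log2 ratio ran from -0.11 (TA) to 0.09 (CT), with -0.04 for TT. Guides ending in GG, the pair most favoured next to the PAM in common design rules, had 10.1% below 200 input reads, 10.1% absent and a median log2 ratio of 0.07. The TT intervals of these 3 measures hold the GG values. For the share at least 4-fold lower the GG value was 7.87%, which lies below the TT interval of 8.11 to 14.3%.

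A T at either position alone was compared with TT in the share of guides with few input reads. The shares of the other guides were weighted to the members' first base and G plus C count in positions 1-18. Guides with T at position 20 and another base at 19 numbered 9860, and their weighted share with fewer than 200 input reads was 9.51%. For guides with T at position 19 alone, which numbered 14327, it was 9.0%, and for the 55008 with T at neither it was 10.5%. All 3 values lie within the interval of the TT members, 8.59 to 14.8%. A pair of T bases elsewhere in the guide, compared with guides without that pair and matched in the same way, changed the share below 200 reads by -1.08 (positions 1 and 2) to 3.06 percentage points (positions 5 and 6), a range that holds the 1.36 of the final pair. For the median log2 ratio the same range ran from -0.26 (positions 5 and 6) to 0.05 (positions 1 and 2), and the final pair had -0.04. The final position was thus within the range of the other 18 in both measures.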

How the data were processed

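Guide barcodes were read in 1 library of uninduced cells and 1 of sorted survivors, told apart by the treatment label. The deposited values are raw counts of reads, as whole numbers, for each 20-base barcode, per the file headers, and the barcodes were amplified by PCR out of genomic DNA, per the labels' protocols. Neither the counting tool nor what the word "combined" in the names covers is given in the sources used here. The PCR reads lacked molecular identifiers, so the floors and single-guide intervals cover counting error alone.

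Counts were joined by barcode and scaled to RPM. Ratios used guides from 30 input reads, a pseudocount of 1 RPM and centring on the median kept guide (-0.42 before centring). Comparison guides were weighted to the members' strata of first base and G plus C count in positions 1-18. Single guides were named by rank in reads or ratio and by overlap, the T-run, absent and promoter-matched guides after their values were seen. The members and measures were chosen with earlier results of these data known. The weighting was tested on simulated data. Python 3.11.15, numpy 2.4.6, pandas 2.3.3, scipy 1.17.1 were used. Alternative scaling factors came from DESeq2 1.42.0 and edgeR 4.0.16 (R 4.3.3).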

Additional observations from a re-analysis of the deposited data

How the results depend on the processing

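No paired analysis was possible because there was 1 library in each group, and leaving out a replicate was not possible either. Of 81 alternatives, of which 28, on the shares at least 4-fold up or down, were chosen after seeing the data, 75 gave a value inside the main interval or a count less than 1.5 times away. The 14 TT guides at least 4-fold up (3.04% of all kept guides) became 1 with a pseudocount of 5 RPM (0.569% of all), 9 with TMM (1.77%) and 9 with DESeq2 size factors (1.996%), neither of them centred (median log2 ratios of -0.23 and -0.18), and 8 from 200 input reads (2.46%). The 46 at least 4-fold down (8.17% of all) became 82 with a pseudocount of 0.1 RPM (18.5%) and 1 with 5 RPM (0.203%), so the share over all guides moved the same way in each case; the cause of these moves was not tested. With G plus C matched over all 20 positions, the differences were -0.35 points for few input reads, 0.09 for log2 input reads, 0.04 for the log2 ratio and -0.99 points for absence, all opposite in sign to the main values. The excess at least 4-fold down lay between 0.04 and 3.44 points in its 14 alternatives, and with matching on the base counts in positions 1-18 it was 3.26 (0.40 to 6.69).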
